A study of Mus musculus with 3072 samples.

Results

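Erythroid colony-forming cells of the bone marrow, labelled CFU, were compared between platelet-depleted and control mice. The cells were the wells of the count matrix whose names hold CFU, with 4 depleted and 4 control mice by the experiment code in the name. Of 3072 wells in the series 768 were labelled CFU, 766 had counts and 627 were kept, 288 from control and 339 from depleted mice. All mice were C57BL/6 with the genotype WT, and they had received transplanted stem cells that carried clonal barcodes. The control mice were sampled at week 32 after transplantation and the depleted mice at week 28, in separate experiments. Treatment, week and experiment therefore cannot be told apart in any value given here. The labels name neither the depleting agent nor the time between depletion and sampling. Each CFU was sorted singly and sequenced by Smart-seq2, which reads whole transcripts without molecular identifiers. The mouse was the replicate: counts of its kept cells were added up, and in such sums fewer cells of a type and less RNA per cell cannot be told apart.

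Erythroid progenitors at the colony-forming stage divide quickly while they build up the machinery for heme and hemoglobin. They depend on erythropoietin, read through its receptor Epor, and earlier on stem cell factor, read through Kit. Klf1 is the transcription factor that switches on much of the red cell programme, and Car1 encodes a carbonic anhydrase of red cells. Platelets come from megakaryocytes, which share a precursor with red cells.

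Nearly all kept cells had counts of the erythroid markers. Klf1 had a count in 626 of 627 cells, Car1 in 627 and Epor in 613. Klf1 stood at 684, 640.4, 683 and 734 CPM (a gene's counts relative to the mouse's library size, after TMM scaling) in control mice 1 to 4 and at 695, 735, 805 and 739 in depleted mice 1 to 4. The groups overlapped, with a log2 fold change of depleted over control of 0.12 ± 0.07 (SE; edgeR adjusted p = 0.596). Car1 (0.15 ± 0.10, adjusted p = 0.637) and Epor (0.10 ± 0.09, adjusted p = 0.751) likewise did not pass. Scaled by library size alone, the 3 markers summed to 4434 to 5131 CPM in controls against 5335 to 6459 in the depleted group, without overlap. Car1, the largest part of that sum, overlapped in this scaling, at 3605 to 4229 and 4221 to 5473 CPM. Epor overlapped too, while Klf1 did not, at 628 to 722 and 729 to 864 CPM. With library sizes alone the median log2 fold change of all tested genes was 0.10.

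The counts of a kept cell ran from 30783 to 5181094 (median 2375104); the sums per mouse held 136220898 to 234572668. The share of wells kept was 71.9% to 79.2% in control and 83.0% to 94.8% in depleted mice, with no overlap (exact permutation p = 0.0286, the lowest that 4 against 4 mice allow; adjusted p = 0.0571 over 4 measures). Median genes per cell also did not overlap, at 8252.5 to 8454 in control and 7569 to 8201 in depleted mice (the same exact p and adjusted p). With cells thinned to 100000 counts, a choice made after the data were seen that left out 1 cell of control mouse 1, they overlapped, at 6163 to 6344 and 5909 to 6273 (exact permutation p = 0.4). Median depth (exact permutation, adjusted p = 0.457) and the mean share of mitochondrially encoded counts, 3.06% to 3.92% against 2.87% to 3.49% (exact permutation, adjusted p = 0.152), overlapped between the groups. In 16 kept wells, markers of myeloid cells, neutrophils or B cells summed to 1000 CPM or more. They lay in control mice 1 and 3, with 4 and 6 wells, and in depleted mice 2, 3 and 4, with 4, 1 and 1.

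**Figure D1:**
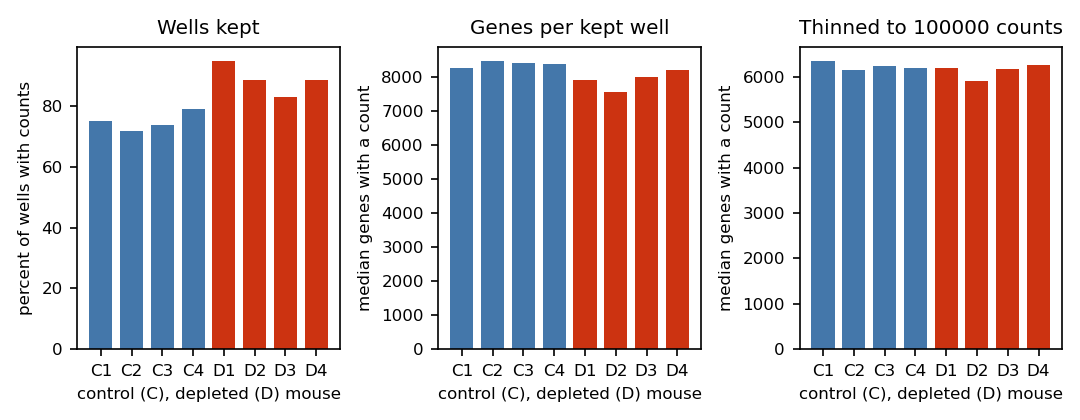
Bars give, for each of 8 mice, the percent of CFU wells kept, the median number of genes with a count per kept cell, and that median after thinning cells to 100000 counts. Kept wells were more and genes per cell fewer in the depleted mice without overlap, and the thinned medians overlapped.

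Of 7910 genes with a mean of 8 CPM or more, 25 passed an adjusted p of 0.05 in edgeR's quasi-likelihood test, 0.316% of those tested. In depleted mice 22 genes (0.278%) were lower and 3 (0.0379%) higher. The lower genes were H2ac8, H1f4, H4c4 and Hist1h2ap of the histone clusters, mt-Rnr1, Zbtb7a, E2f2, Ccne1, Ppp1r15a, Rps27, Rpl39, Casp8ap2, Atrx, Baz1b, Anp32a, Dhx9, Scaf11, Zfp326, Prrc2c, Apbb1ip, Tuba1a and Gm11942. The higher ones were Hspa1a, Kit and Gm47283. All 25 had 4 depleted mice apart from 4 control mice, which held for 4.16% of tested genes in the lower and 2.48% in the higher direction.

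How many genes passed depended on the genes admitted and on the mice. With edgeR's default filter 0 of 15545 genes passed (1790 had an unadjusted p under 0.05), and leaving out 1 mouse gave from 3 genes without control mouse 4 to 80 without control mouse 2, with 3 and 23 of the 25 among them. Scaling by library size alone gave 13 genes higher and 13 lower, against 3 and 22 with TMM. DESeq2 called 240 of 7902 genes with an adjusted p (3.04%), 43 higher (0.544%) and 197 lower (2.49%). On simulated sums 20.9% of DESeq2's calls were false, against 6.36% of edgeR's, a limit on all DESeq2 counts given below.

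**Figure D2:**
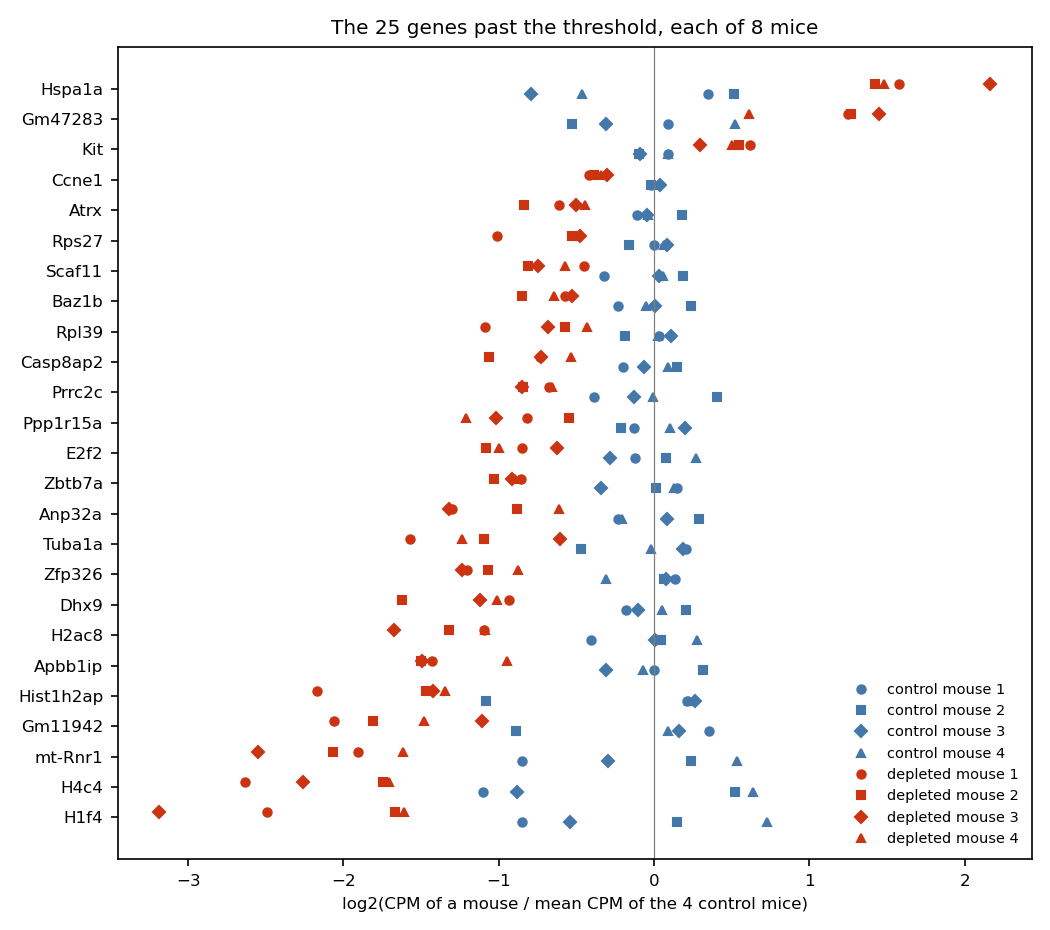
Each point is 1 mouse and gives the log2 ratio of its CPM to the mean of the 4 control mice, for the 25 genes that passed the test; control mice are blue and depleted mice red. In every gene the red points lie apart from the blue, on the left in 22 genes and on the right in Hspa1a, Gm47283 and Kit.

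Genes of the histone clusters held 4 of the 22 decreases, the 2 largest among them. These genes supply the core and linker histones that package newly copied DNA, and most make a message that ends in a stem-loop in place of a poly(A) tail. H2ac8, an H2A gene, stood at 79.0, 108, 105 and 126 CPM in control mice 1 to 4 and at 48.9, 41.9, 32.7 and 49.0 in depleted mice 1 to 4. Every depleted mouse lay below the lowest control mouse, control mouse 1. The log2 fold change was -1.28 ± 0.16 (SE; edgeR adjusted p = 0.00628), and H2ac8 passed the test without any 1 of the 8 mice. With cells thinned to 20000 counts, 63.4% to 75.4% of the cells of a control mouse and 43.6% to 53.8% of those of a depleted mouse had an H2ac8 count; unthinned, the shares were 88.9% to 100% and 89.7% to 95.3%.

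H1f4, which encodes a linker histone, was at 14.1, 28.1, 17.5 and 42.0 CPM in control and at 4.52, 8.0006, 2.79 and 8.33 CPM in depleted mice. H4c4, an H4 gene, was at 11.9, 36.8, 13.9 and 39.9 against 4.13, 7.64, 5.34 and 7.84 CPM. In both genes control mice 2 and 4 stood above control mice 1 and 3, and the depleted mice lay below all 4. Their log2 fold changes were -2.10 ± 0.39 and -2.04 ± 0.38 (SE; edgeR adjusted p = 0.0412 each). Hist1h2ap, an H2A gene, was at 25.8, 10.5, 26.7 and 25.9 against 4.93, 8.03, 8.28 and 8.73 CPM (-1.57 ± 0.30, edgeR adjusted p = 0.0422). Its margin between the groups was set by control mouse 2, the lowest of the controls. In the 8 fits that left out 1 mouse, H1f4 and H4c4 passed in 3 each and Hist1h2ap in 1.

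Of 67 clustered histone genes in the files, 11 were abundant enough to be tested. Of these 4 passed, all lower, where 0.278% of all genes passed lower. At an unadjusted p under 0.05, 5 were lower and 0 higher, against 7.12% lower and 4.61% higher over all genes. The median of the 11 was -0.28, beside 0.00 for all tested genes. A gene high in control mice alone could enter by the abundance filter, so these counts do not describe all members. H1f4, H4c4 and Hist1h2ap averaged 25.4, 25.6 and 22.2 CPM in control mice. In depleted mice they averaged 5.91, 6.24 and 7.49 CPM, so they passed the limit of 8 CPM through the control mice. With edgeR's default filter 57 clustered histone genes had a median of 0.02, 8 of them lower and 0 higher at an unadjusted p under 0.05. Without depleted mouse 2 the median was -0.77, over 10 genes. Of 8 tested genes for variant histones, which are made outside S phase too, 0 passed in edgeR or DESeq2 and 0 had an unadjusted p under 0.05. They had a median of -0.03 and ran from -0.20 to 0.27. Genes of the clusters are near-identical in sequence, so reads can be shared among them and each gene's value is uncertain.

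The bases upstream of 3 of these genes are shown because the genes passed together and lie near each other on chromosome 13; the upstream bases of Hspa1a, which passed in the other direction, stand beside them. The sequences are RefSeq's for GRCm38.p6, each 150 bases that end just before the annotated start, 5′ to 3′ on the gene's strand. H2ac8 is chr13:23571221-23571370 (minus strand), H4c4 chr13:23581418-23581567 (plus), H1f4 chr13:23622559-23622708 (minus) and Hspa1a chr17:34972157-34972306 (minus). Capitals mark matches on either strand to TATAAA, the TATA box, to CCAAT, the box bound by NF-Y, and to GAANNTTC, the core of a heat shock element.
H2ac8: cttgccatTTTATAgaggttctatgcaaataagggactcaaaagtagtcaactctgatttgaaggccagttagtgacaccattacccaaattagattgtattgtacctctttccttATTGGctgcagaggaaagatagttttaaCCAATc
H4c4: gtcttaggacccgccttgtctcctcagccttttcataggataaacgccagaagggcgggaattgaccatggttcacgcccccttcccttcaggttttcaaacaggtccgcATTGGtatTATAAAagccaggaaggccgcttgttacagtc
H1f4: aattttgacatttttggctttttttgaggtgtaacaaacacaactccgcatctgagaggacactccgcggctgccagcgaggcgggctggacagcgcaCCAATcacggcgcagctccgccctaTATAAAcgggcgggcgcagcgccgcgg
Hspa1a: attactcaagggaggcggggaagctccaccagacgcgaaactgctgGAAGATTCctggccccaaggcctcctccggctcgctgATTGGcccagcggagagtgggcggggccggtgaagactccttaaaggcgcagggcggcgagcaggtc
A TATAAA match was present in H2ac8, H4c4 and H1f4 and in 7.55% of 32475 windows of this length in the RefSeq table. It opened 32 bases before the start in H4c4 and 27 in H1f4, on the gene's strand. In H2ac8 it opened 142 bases before the start and lay on the opposite strand. CCAAT matches numbered 2 in H2ac8 and 1 in each of the others, and 24.4% of windows held at least 1. GAANNTTC matched once in Hspa1a, 104 bases before the start, and in 3.95% of windows. The motifs overlapped nowhere in these 4 sequences. A match is a run of letters and was not tested for binding.

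Among the called genes outside the histones, the largest fold decrease was in mt-Rnr1, the small ribosomal RNA encoded by the mitochondrial genome. It stood at 793, 1687, 1166 and 2072 CPM in control mice 1 to 4 and at 382, 341, 244 and 466 in depleted mice 1 to 4. The control mice ranged widely, and the lowest, mouse 1, was above every depleted mouse. The log2 fold change was -1.997 ± 0.25 (SE; edgeR adjusted p = 0.00628), and mt-Rnr1 passed without any 1 of the mice. Of 14 tested mitochondrially encoded genes it was the 1 that passed, where 0.278% of all genes passed lower. The median of the 14 was -0.35. At an unadjusted p under 0.05, 6 were lower and 0 higher, against 7.12% and 4.61% of all genes. DESeq2 called 4 of the 14, all lower, where it called 2.49% of all genes lower. After removal of GC and length trends that median was -0.03.

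The large ribosomal RNA mt-Rnr2 was at 10256 to 18920.4 CPM in controls against 5394 to 12367 in the depleted group (-0.75 ± 0.22, edgeR adjusted p = 0.158). Among the protein-coding genes, mt-Nd5, a subunit of complex I, was at 1262 to 1462 and 887 to 1164 CPM (-0.36 ± 0.09, edgeR adjusted p = 0.0858). mt-Co2, a subunit of cytochrome c oxidase, was at 27.7 to 50.004 and 17.4 to 31.1 CPM (-0.79 ± 0.20, edgeR adjusted p = 0.105). These 3 did not pass. Reads of mitochondrial genes can be shared with copies in the nuclear genome, so single genes are uncertain.

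Among erythroid regulators Zbtb7a and E2f2 were lower and Kit was higher in the depleted mice. Zbtb7a, a zinc finger repressor needed for red cell maturation, stood at 92.1, 83.7, 65.7 and 90.9 CPM in control mice 1 to 4 and at 46.0, 40.6, 44.0 and 44.6 in depleted mice 1 to 4. The 4 depleted mice lay close together, all below control mouse 3. The log2 fold change was -0.92 ± 0.12 (SE; edgeR adjusted p = 0.00694). E2f2, an E2F factor that takes part in the cell cycle exit of erythroblasts, was at 29.2, 33.5, 26.0 and 38.2 against 17.6, 14.97, 20.6 and 15.9 CPM (-0.88 ± 0.17, edgeR adjusted p = 0.0453). Without the mice in turn Zbtb7a passed in 7 of 8 fits and E2f2 in 1.

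Of 26 erythroid transcription factors 24 were tested, and Zbtb7a and E2f2 were those that passed. Over all genes 0.278% passed lower and 0.0379% higher. At an unadjusted p under 0.05, 3 of the factors were higher and 3 lower, against 4.61% and 7.12% of all genes. The list median was 0.07, with 17 above 0 and 7 below, while both called genes were lower. Myb, which keeps progenitors dividing, was at 153, 108, 141 and 97.8 CPM in control and 187, 142, 167 and 182 in depleted mice. Control mouse 1 overlapped the depleted range, and Myb did not pass (0.44 ± 0.14, edgeR adjusted p = 0.198).

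Kit encodes the receptor tyrosine kinase for stem cell factor and is lost as erythroid cells mature. It stood at 155, 137, 138 and 155 CPM in control mice 1 to 4 and at 225, 214, 179 and 207 in depleted mice 1 to 4. All 4 depleted mice lay above the controls, by 0.50 ± 0.09 on the log2 scale (SE, edgeR adjusted p = 0.0412). Kit passed in 2 of the 8 fits that left out 1 mouse. In barcoded cells, and with cells thinned to 100000 counts, 0 genes passed in the higher direction. Of 20 tested genes of erythropoietin and Kit signalling, Kit was the 1 that passed, where 0.0379% of all genes passed higher. At an unadjusted p under 0.05, 2 of the 20 were higher and 0 lower, against 4.61% and 7.12% of all genes. The median of the list was 0.08. Spred1, an inhibitor of the Ras pathway, was at 4.22 to 9.25 CPM in controls against 11.2 to 13.4 in the depleted group (0.61 ± 0.26, edgeR adjusted p = 0.358). It reached the limit of 8 CPM through the depleted mice. Myc, a progenitor factor that drives growth, was at 283, 185, 282 and 212 against 379, 351, 374 and 289 CPM. The groups did not overlap in Myc, which missed the threshold (0.53 ± 0.13, edgeR adjusted p = 0.0973).

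**Figure D3:**
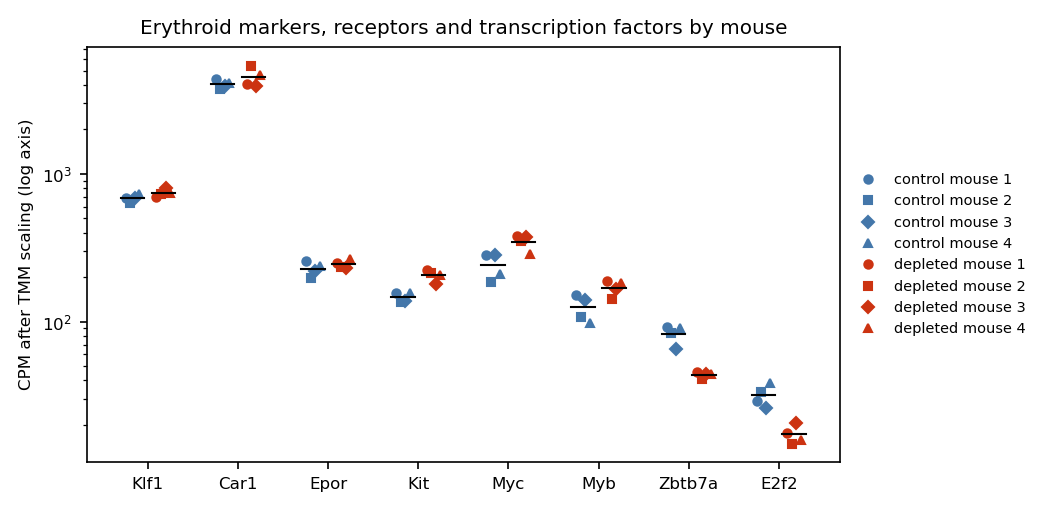
Points give the CPM of each mouse on a log axis for 3 erythroid markers, Kit, Myc, Myb, Zbtb7a and E2f2, and black lines give group means. Klf1, Car1 and Epor overlap between control (blue) and depleted (red) mice, whereas Kit is higher and Zbtb7a and E2f2 are lower in all 4 depleted mice.

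Cytosolic ribosomal protein genes were lower as a list. Of 80 tested, 2 passed, both lower, where 0.278% of all genes passed lower. At an unadjusted p under 0.05, 54 (67.5%) were lower and 0 higher, against 7.12% and 4.61% of all genes. DESeq2 called 29 of the 80 lower, against 2.49% of all genes. In 34 of the 80 the depleted mice lay below all controls, against 4.16% of all genes. The list median was -0.27, and 75 of 80 lay below 0. Rps27, of the small subunit, was at 699, 625, 739 and 729.6 CPM in control and 347, 485, 501 and 487 in depleted mice (-0.62 ± 0.11 SE, edgeR adjusted p = 0.0412). Rpl39, of the large subunit, was at 396, 341, 418 and 395 against 182, 260.4, 241 and 287 CPM (-0.67 ± 0.12 SE, edgeR adjusted p = 0.0412). In both genes depleted mouse 1 was the lowest of all mice. Rps27 passed in 2 and Rpl39 in 3 of the 8 fits that left out 1 mouse. Rps12 and Rpl31 followed at -0.74 ± 0.15 and -0.49 ± 0.10 and just missed the threshold (edgeR adjusted p = 0.0502 each).

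Averaged over the list, the mice ran from -0.16 to 0.14 in control and from -0.51 to -0.17 in depleted mice, on the log2 scale against the control mean. These transcripts are short, with a median length of 1100 bases against 3305 for all tested genes, and with GC and length trends removed the median was -0.16. Ribosomal protein genes have many processed pseudogenes, so single genes are uncertain. Mitochondrial ribosomal proteins had a median of -0.01 over 77 genes and ribosome biogenesis factors 0.04 over 35, with 0 passing in either by edgeR. At an unadjusted p under 0.05 they had 5 lower, and 5 higher and 1 lower. DESeq2 called 0 and 1, and 3.04% of all genes. Over all genes 4.61% were higher and 7.12% lower at an unadjusted p under 0.05. Wdr43, of the early ribosome assembly complex, was at 231 to 238 CPM in controls against 275 to 301 in the depleted group (0.30 ± 0.07, edgeR adjusted p = 0.0739).

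Nuclear genes of the respiratory chain had 0 of 57 members past the threshold in edgeR and 9, all lower, in DESeq2, which called 2.49% of all genes lower. At an unadjusted p under 0.05 there were 23 lower and 0 higher, against 7.12% and 4.61% of all genes. In 18 genes the depleted mice lay below every control mouse, as in 4.16% of all. The median was -0.13. Cox6b1, a cytochrome c oxidase subunit, was at 537, 552, 541 and 544 CPM in control and 359, 456, 446 and 454 in depleted mice (-0.34 ± 0.08, edgeR adjusted p = 0.0786). Atp5k, of the ATP synthase, was at 82.3 to 109.9 and 45.2 to 72.2 CPM (-0.56 ± 0.14, edgeR adjusted p = 0.104). Both had their lowest value in depleted mouse 1. Without that mouse the list median was -0.08, and with library sizes alone it was -0.04, where the median of all genes was 0.10.

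**Figure D4:**
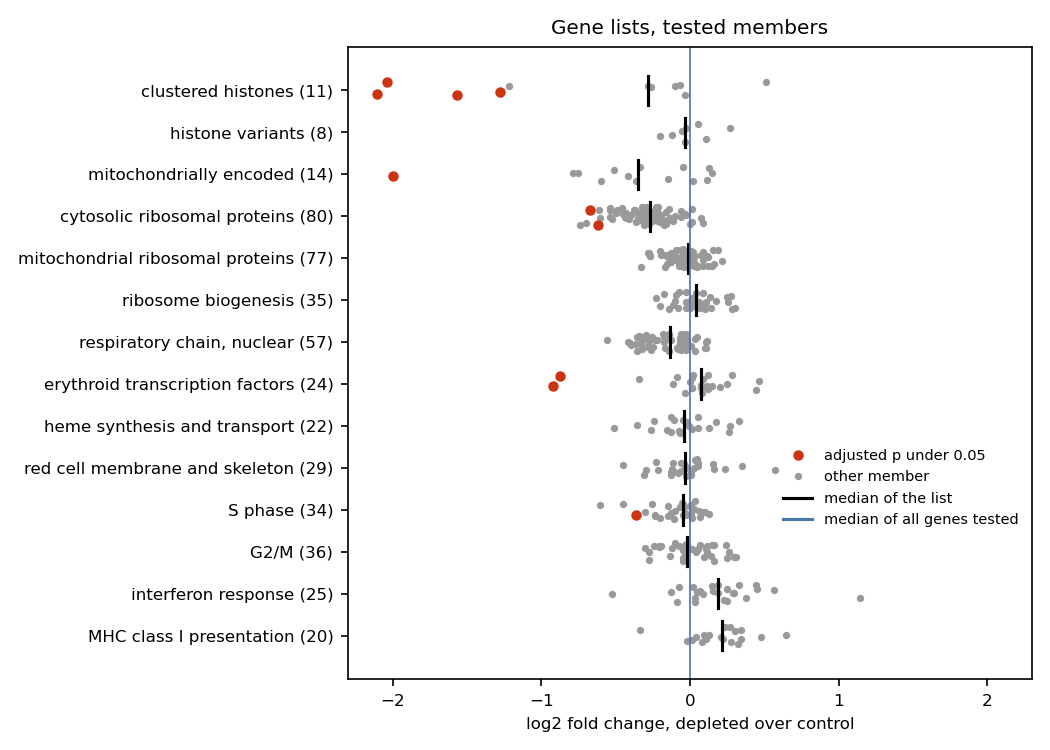
Each point is a tested gene and gives its log2 fold change of depleted over control; red points passed an adjusted p of 0.05, black bars are list medians and the blue line is the median of all 7910 genes. Cytosolic ribosomal proteins lie mostly left of the line with a median of -0.27, while variant histones and mitochondrial ribosomal proteins lie around it.

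**Figure D5:**
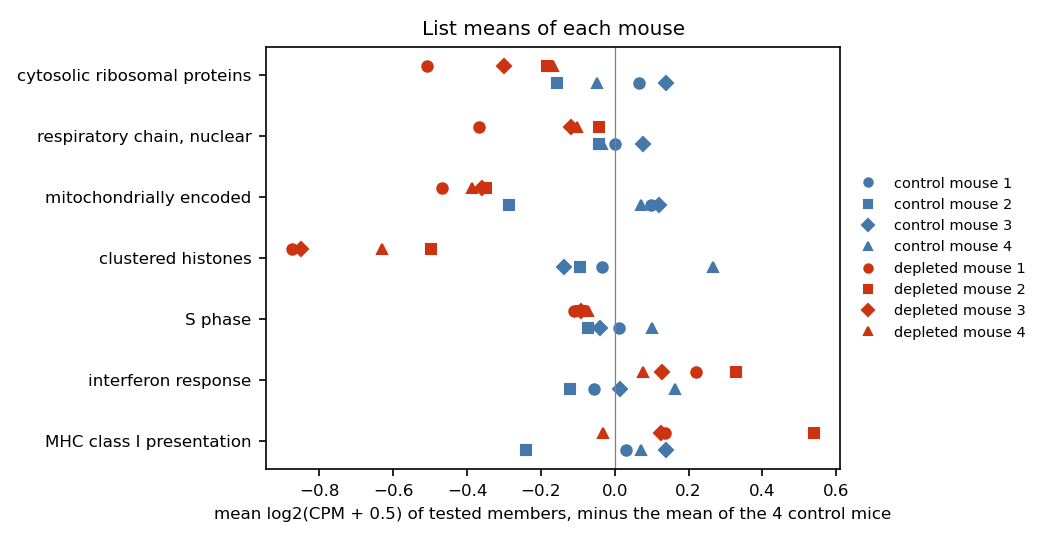
Points give, for each mouse, the mean log2(CPM + 0.5) of a list's tested members minus the mean of the 4 control mice. The depleted mice (red) lie below the controls (blue) in cytosolic ribosomal proteins, mitochondrially encoded genes and clustered histones, and the groups overlap in the interferon and MHC class I lists.

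Stress genes held a call in each direction. Hspa1a, the inducible heat shock protein, was at 12.3, 13.8, 5.59 and 7.01 CPM in control mice 1 to 4 and at 28.9, 26.0, 43.5 and 27.0 in depleted mice 1 to 4. Depleted mouse 3 was the highest, and every depleted mouse exceeded the controls (1.69 ± 0.28 SE, edgeR adjusted p = 0.0408). With cells thinned to 20000 counts, Hspa1a had a count in 5.63% to 19.4% of the cells of a control mouse and in 24.7% to 42.3% of those of a depleted mouse; up to 25.4% of a mouse's Hspa1a counts came from 1 cell. Its neighbour Hspa1b is near-identical and reads can be shared, so the value is uncertain. Of 19 tested heat shock genes Hspa1a was the 1 that passed, where 0.0379% of all genes passed higher. At an unadjusted p under 0.05, 1 was higher and 1 lower, against 4.61% and 7.12% of all genes. The median of the list was -0.04.

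Ppp1r15a, the regulatory subunit that directs the phosphatase of the integrated stress response, was at 123, 116, 154 and 144 CPM in control and 76.1, 91.9, 66.3 and 58.0 in depleted mice. The groups were apart, at -0.88 ± 0.14 (SE; edgeR adjusted p = 0.0305). It was the 1 gene of 21 that passed in the stress and amino acid response list, whose median was -0.01. Over all genes 0.278% passed lower. At an unadjusted p under 0.05 the list had 0 higher and 2 lower, against 4.61% and 7.12% of all genes. Sesn2, induced by the same response, was at 19.1 to 38.9 and 15.6 to 21.8 CPM and did not pass (-0.53 ± 0.21, edgeR adjusted p = 0.316). Of 9 tested immediate early genes 0 passed in edgeR and 1 in DESeq2, which called 3.04% of all genes. The median of the 9 was -0.40. At an unadjusted p under 0.05, 1 was higher and 3 were lower, against 4.61% and 7.12% of all genes. Zfp36l2, an RNA-binding protein that maintains the self-renewal of early erythroid progenitors, was at 12.5 to 15.6 CPM in controls against 20.4 to 22.04 in the depleted group (0.65 ± 0.17, edgeR adjusted p = 0.101). Nfkbia, the NF-κB inhibitor, was at 62.4 to 200.2 CPM in control mice and 21.1 to 23.4 in depleted mice 1, 3 and 4, with 114 in depleted mouse 2 (-1.42 ± 0.51, edgeR adjusted p = 0.275).

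In the cell cycle lists Ccne1 passed. It encodes a cyclin of the entry into S phase and stood at 418, 418, 434 and 423 CPM in control mice 1 to 4 and at 316, 324, 343 and 333 in depleted mice 1 to 4. Both groups were tight and apart, so a small difference of -0.36 ± 0.07 (SE) passed with an edgeR adjusted p of 0.0412. Ccne1 passed in 1 of the 8 fits that left out 1 mouse. Of 34 S phase genes 7 had a lower level at an unadjusted p under 0.05 and 0 a higher one, against 7.12% and 4.61% of all genes, with a median of -0.05. Scaled by library size alone, 3 were lower and 1 higher, and the median was 0.05. Clspn, a mediator of the replication checkpoint, was at 65.8 to 77.2 against 36.8 to 51.9 CPM and narrowly missed (-0.60 ± 0.13, edgeR adjusted p = 0.052). Of 36 G2/M genes 0 passed in edgeR and 1 in DESeq2, which called 3.04% of all genes. At an unadjusted p under 0.05, 2 were higher and 4 lower, against 4.61% and 7.12% of all genes, and the median was -0.02. Plk1 and Aurkb, mitotic kinases, were at 0.25 ± 0.09 and 0.26 ± 0.09, whereas Cdca3 and Ccna2 were at -0.27 ± 0.08 and -0.21 ± 0.07 (edgeR adjusted p from 0.147 to 0.26).

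Among 16 tested genes for early cyclins, their kinases and inhibitors, 0 passed in edgeR and 2 in DESeq2, which called 3.04% of all genes. At an unadjusted p under 0.05, 1 was higher and 3 were lower, against 4.61% and 7.12% of all genes. The median was -0.01. Ccnd1, a cyclin induced by growth signals, was at 11.6, 10.8, 17.5 and 15.4 CPM in control and 8.12, 4.89, 3.81 and 4.87 in depleted mice (-1.35 ± 0.28, edgeR adjusted p = 0.0514). Up to 40.5% of a mouse's Ccnd1 counts came from 1 cell. Cdkn1b, an inhibitor of cyclin-dependent kinases, was at 9.33 to 15.1 against 6.03 to 8.14 CPM (-0.82 ± 0.23, edgeR adjusted p = 0.139). Both were lower in every depleted mouse than in any control, as were 4.16% of all tested genes. Both reached the limit of 8 CPM through the control mice, where they were higher.

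The other called genes belong to none of the lists used here. Dhx9, an RNA helicase, was at 47.4, 62.0, 49.98 and 55.6 CPM in control and 28.1, 17.5, 24.7 and 26.7 in depleted mice (-1.15 ± 0.16 SE, edgeR adjusted p = 0.00948). Casp8ap2, which takes part in the processing of histone messages, was at 66.0, 83.7, 72.5 and 80.8 against 45.6, 36.3, 45.8 and 52.3 CPM (-0.75 ± 0.13 SE, edgeR adjusted p = 0.0412). Depleted mouse 2 was the lowest in both genes. The chromatin remodellers Atrx (-0.59 ± 0.11) and Baz1b (-0.64 ± 0.11) were lower too, as were Scaf11, a splicing-related protein (-0.64 ± 0.12), and Prrc2c (-0.75 ± 0.14; edgeR adjusted p = 0.0412 for each of the 4). Zfp326, a zinc finger protein bound to messenger ribonucleoprotein, was at 14.6 to 19.9 against 7.68 to 9.88 CPM (-1.09 ± 0.20, edgeR adjusted p = 0.0412). Anp32a, an acidic nuclear phosphoprotein, was at 31.0 to 44.6 against 14.6 to 23.8 CPM (-0.998 ± 0.19, edgeR adjusted p = 0.0445).

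Outside the nucleus, Apbb1ip, a Rap1 effector in integrin activation, was at 33.7, 41.9, 27.2 and 32.0 CPM in control and 12.5, 11.9, 11.9 and 17.5 in depleted mice (-1.32 ± 0.19 SE, edgeR adjusted p = 0.00948). Tuba1a, an alpha-tubulin with close copies, was at 29.6 to 47.3 against 13.8 to 26.9 CPM (-1.08 ± 0.21, edgeR adjusted p = 0.0453). The predicted genes Gm11942 (-1.57 ± 0.29) and Gm47283 (1.18 ± 0.22) passed with an edgeR adjusted p of 0.0412 each. Gm11942 averaged 21.6 CPM in control and 7.28 in depleted mice, so it reached the limit of 8 CPM through the control mice. Gm47283 was at 34.9, 22.8, 26.5 and 47.2 against 78.1, 79.2, 89.9 and 50.3 CPM, so its groups were separated by the small gap between control mouse 4 and depleted mouse 4.

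Because few genes passed in the higher direction, the next 9 with non-overlapping groups are given by p; they did not pass. Atp11b, a lipid flippase, was at 48.5, 41.1, 39.6 and 49.4 CPM in control and 90.4, 57.6, 64.9 and 90.7 in depleted mice (0.77 ± 0.16, edgeR adjusted p = 0.0514). Fam126a (0.57 ± 0.11), Shcbp1 (0.52 ± 0.10), St6galnac4, a sialyltransferase (0.49 ± 0.10), and Aqp9, an aquaglyceroporin (0.44 ± 0.09), had edgeR adjusted p from 0.0502 to 0.052. The transcriptional regulators Zbtb1 (0.49 ± 0.10) and Phf6 (0.51 ± 0.11) stood at 0.052. Otud4, a deubiquitinase (0.59 ± 0.13), and Atp1b2, a subunit of the sodium-potassium pump (0.37 ± 0.08), stood at 0.06 and 0.0679.

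Interferon and MHC class I genes held no call, and in 0 of them were all depleted mice above the controls. Of 25 tested interferon response genes 21 lay above 0, with a median of 0.19; 0 passed in edgeR or DESeq2, and 2 were higher and 1 lower at an unadjusted p under 0.05, near the shares of all genes, 4.61% and 7.12%. Irf1, a transcription factor of the response, was at 3.85, 2.68, 8.34 and 7.11 CPM in control and 9.79, 21.1, 12.2 and 5.60 in depleted mice (1.14 ± 0.41, edgeR adjusted p = 0.269). Depleted mouse 4 lay within the control range, and Irf1 reached the limit of 8 CPM through the depleted mice. Irgm1, an interferon-induced GTPase, was at 0.45 ± 0.16 and Eif2ak2, a kinase activated by double-stranded RNA, at -0.52 ± 0.19 (edgeR adjusted p = 0.258 and 0.279). Of 20 genes of MHC class I presentation 18 lay above 0 with a median of 0.22, and 0 passed in edgeR or DESeq2. H2-Q7 was at 55.8 to 114 against 99.9 to 180.2 CPM (0.65 ± 0.21, edgeR adjusted p = 0.225), and H2-D1 at 815 to 1037 against 933 to 1393 (0.27 ± 0.11, edgeR adjusted p = 0.35). Depleted mouse 2 was the highest in both, and without it the MHC median was 0.05.

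Heme, globin, iron and membrane genes held no call by edgeR. Of 22 tested genes of heme synthesis and transport 0 passed in edgeR or DESeq2, with 1 higher and 2 lower at an unadjusted p under 0.05 and a median of -0.04. Clpx, which activates the first enzyme of the pathway, was at 0.27 ± 0.10, and Tmem14c, which carries a heme precursor into mitochondria, at -0.24 ± 0.09 (edgeR adjusted p = 0.273 and 0.289). Of 4 tested hemoglobin genes Hba-a2 was at 46.0, 30.9, 34.7 and 68.3 CPM in control and 14.3, 29.2, 23.1 and 20.2 in depleted mice (-1.05 ± 0.25, edgeR adjusted p = 0.0767). The groups were apart, though alpha globin reads can be split with the near-identical Hba-a1 and up to 31.8% of a mouse's Hba-a2 counts came from 1 cell. Of 13 iron handling genes and 29 genes of the membrane and skeleton 0 passed in edgeR, with medians of 0.04 and -0.03. At an unadjusted p under 0.05 there were 0 higher and 1 lower, and 1 and 3. DESeq2 called 0 and 1, and 3.04% of all genes. Over all genes 4.61% were higher and 7.12% lower at an unadjusted p under 0.05. The surface proteins Cd24a (-0.31 ± 0.09) and Cd44 (-0.22 ± 0.08) had an edgeR adjusted p of 0.156 and 0.291.

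Of 21 tested antioxidant genes and 16 of folate and one-carbon metabolism 0 passed in edgeR, with medians of -0.08 and -0.02. At an unadjusted p under 0.05 there were 1 higher and 3 lower, and 2 and 2, against 4.61% and 7.12% of all genes. Their members of lowest p are given here. Sod1, the cytosolic superoxide dismutase, was at 872 to 1459.7 against 746 to 884 CPM (-0.54 ± 0.13, edgeR adjusted p = 0.0764), and Gclm, of glutathione synthesis, at 321 to 398 against 405 to 503 (0.31 ± 0.09, edgeR adjusted p = 0.179). Mat2a, which makes S-adenosylmethionine, was at 283 to 351 against 392 to 458 CPM (0.35 ± 0.09, edgeR adjusted p = 0.0896). Atic, of purine synthesis, was at 51.0 to 83.9 against 38.6 to 47.5 CPM (-0.62 ± 0.16, edgeR adjusted p = 0.092). Among glycolysis (15 genes tested), hypoxia (9), cholesterol synthesis (19), glucocorticoid response (9), autophagy (18), Bcl2 family (6), p53 target (10) and proteasome (31) genes 0 passed in edgeR or DESeq2. Their medians lay between -0.11 and 0.08. In the same order, 3, 1, 0, 2, 0, 0, 0 and 0 genes were higher at an unadjusted p under 0.05, against 4.61% of all genes. Lower at that limit were 0, 0, 1, 2, 0, 0, 1 and 0, against 7.12%. The share higher was 20% in glycolysis. In the glucocorticoid response 22.2% were higher and 22.2% lower.

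Markers of other cells were high in single mice of both groups. The 12 myeloid markers summed to 2.82 to 1385 CPM in controls against 2.53 to 1001 in the depleted group. Neutrophil markers reached 3339 CPM in control mouse 3 and 95.4 in depleted mouse 4, against 2.11 or less in the others, and B cell markers reached 277 CPM in depleted mouse 2. Retnlg and Mmp8 of the neutrophil list and Cd3e and Cd3g of the T and NK list were at 0 in all 8 sums. Other members of the neutrophil list were high in control mouse 3. There S100a8 was at 1084, S100a9 at 980, Ngp at 621 and Camp at 307 CPM. Nkg7 of the T and NK list reached 32.9 CPM. Megakaryocyte and platelet markers summed to 83.9 to 112 CPM in controls against 81.3 to 97.0 in the depleted group, with 23 of 26 members under a mean of 8 CPM. Within that list Pf4, a platelet chemokine, was at 3.29 to 9.59 CPM in controls and 1.62 to 2.03 in depleted mice. Ppbp and F2rl2 were also lower without overlap, but near 0 in both groups. Ppbp was at 0.0352 to 0.526 against 0 to 0.0194 CPM, and F2rl2 at 0.199 to 0.905 against 0.0533 to 0.188. Gp5, of the platelet von Willebrand factor receptor, was higher without overlap in this scaling, at 31.1 to 38.5 and 39.2 to 45.4 CPM. These 4 were chosen after their values were seen. The levels given here are scaled by library size alone and carry no test. After TMM scaling, 4.16% of tested genes were lower and 2.48% higher without overlap, which is another scale. Pf4, Ppbp and F2rl2 were too low to be tested. Gp5 was tested after TMM scaling, where its groups overlapped, and did not pass (0.10, edgeR adjusted p = 0.828). The HSC markers were at 62.1 to 98.2 and 76.9 to 87.8 CPM with Mllt3 as the 1 member at a mean of 8 CPM or more. Their part in the results was not tested, beyond the fit without the 16 wells given next.

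With the 16 wells rich in myeloid, neutrophil or B cell markers left out, a choice made after the data were seen, 112 of 7856 genes passed (1.43%), 96 lower (1.22%) and 16 higher (0.204%). All 25 genes above were among them. Of 80 cytosolic ribosomal protein genes 16 then passed, all lower, and of 11 clustered histones 5. Myc (0.54, edgeR adjusted p = 0.0394), Ccnd1 (-1.34, 0.0221), Clspn (-0.61, 0.0225), Hba-a2 (-1.05, 0.0321), Sod1 (-0.54, 0.0321) and Atic (-0.63, 0.0401) joined them, and the 9 genes named above for the higher direction passed too. Ccnd1 reached the limit of 8 CPM through the control mice there too, at a mean of 13.6 against 5.37 CPM. With edgeR's default filter on the same wells 0 of 15290 genes passed, with 1802 at an unadjusted p under 0.05.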

How the data were processed

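Single CFU of 8 mice were profiled by Smart-seq2, per the labels' protocols. The authors deposited raw read counts for each gene and well; the submitters' processing notes name Trim Galore 0.5, STAR 2.6.0 and HTSeq 0.6.1, with no build, annotation or strand rule given in the sources used here. Per the file headers, a second deposited table gives for each well a barcode call and a Shannon score of barcode diversity; only the call was used, and all 627 kept wells are in it. Wells sharing the opening code of their titles were treated as 1 mouse, though no label states this. Nothing in them says whether a mouse's cells were handled apart, so p-values measure the spread between these 8 sums, and intervals cover no amplification error.

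Wells were kept with 20000 or more counts, 1000 to 10000 genes and at most 20% of counts in mt- genes. Of 139 removed wells, 119 were low (84 control, 35 depleted; median 2582 counts), 20 had over 10000 genes and 0 failed by the mt- limit alone. No doublet caller was run. Of 55291 symbols 107 stood on several rows, which were added. The other 2304 columns of the matrix, from HSC and MkP wells, were not used. The planned tests of whether the effect differs between CFU and those populations were therefore not run. Whether any result here is particular to CFU was not tested.

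Counts summed per mouse were tested with edgeR 4.0.16 in R 4.3.3 (quasi-likelihood, TMM, Benjamini-Hochberg over all genes of a mean of 8 CPM or more). On simulated sums of 7812 genes edgeR recovered 78.6% of changes of 1 and 26.8% of changes of 0.5 on the log2 scale, with 6.36% false calls; DESeq2 1.42.0 recovered 87.8% and 44.3% with 20.9% false. Well measures were compared by exact two-sided permutation of 70 labelings. CPM values are after TMM scaling, except those of other cells' markers and the sum of Klf1, Car1 and Epor. These are scaled by library size alone. Fold changes have as error the size divided by the root of F. Trends were removed with GENCODE M21 GC content and length, known for 99.9% of genes. Alternatives: DESeq2, library sizes alone, 2 filters, wells of over 10000 genes, of 100000 counts, thinned, with all 3 markers or barcoded, trends removed, and each mouse left out.

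The cells, lists and tests were chosen with earlier results of these data known. The histone list was split and widened to the symbols of the files after they were seen. The rule for named genes took all called genes, then, in a direction with fewer than 12, genes of non-overlapping groups by p up to 12, up to 6 called or otherwise up to 4 members of a list by p, and Klf1, Car1 and Epor; the text gives a part of the list members. Nothing above is adjusted over a list alone.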

Additional observations from a re-analysis of the deposited data

Results flagged for a closer look

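Values far from the other 3 mice of their group, by Dixon's ratio of gap to range, were found in 8 of 152 groups of 4 mice, over 72 genes and 4 well measures; chance flags about 1 in 20. Depleted mouse 1 was low in Rps27 (347 CPM, others 485 to 501), Cox6b1 (359, others 446 to 456) and Atp5k (45.2, others 68.8 to 72.2). Control mouse 2 was low in Hist1h2ap (10.5 CPM, others 25.8 to 26.7) and Spred1 (4.22, others 8.72 to 9.25). Depleted mouse 2 was high in Nfkbia (114 CPM, others 21.1 to 23.4), depleted mouse 3 in Hspa1a (43.5, others 26.0 to 28.9) and depleted mouse 4 in Apbb1ip (17.5, others 11.9 to 12.5).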

How the results depend on the processing

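All 25 called genes kept their direction in all 20 alternatives, and H2ac8 and mt-Rnr1 were called in every one but the 3 with another expression filter. The number of called genes was 25 (3 higher, 22 lower) and became 240 (43 and 197) with DESeq2, 57 (12 and 45) with GC and length trends removed, 95 (13 and 82) in cells with Klf1, Car1 and Epor counts, 6 (0 and 6) in barcoded cells, 5 (0 and 5) with cells thinned to 100000 counts, and 112 (16 and 96) without the 16 wells of other cells' markers. It was 26 (13 and 13) with library sizes alone, 15 of them shared with the 25, and 37 with wells of over 10000 genes kept, 6 of these higher. With edgeR's default filter and with no filter it was 0 in each direction, also without those 16 wells; 1790, 2768 and 1802 genes then had an unadjusted p under 0.05. The cause was not tested. Leaving out 1 mouse gave 3 to 80 called genes, 0 to 6 higher and 2 to 75 lower: 18, 80, 13 and 3 without control mice 1 to 4, and 10, 14, 17 and 14 without depleted mice 1 to 4. The difference in median genes per cell, -454.4, ran from -548 to -338 without 1 mouse, and was -97.4 with thinned cells; 3 against 4 mice cannot pass the threshold. No paired analysis was possible because no mouse is in both groups. The tests of CFU against HSC and MkP, with the mouse as a block, were not run. A change of 0.5 on the log2 scale was recovered by edgeR in 26.8% of simulated cases; how recovery depends on depth was not tested.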

Other observations

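The 20 wells left out for over 10000 genes held 10697 to 11704 genes and 1525051 to 3402509 counts. They numbered 3 in each control mouse and 2 in each depleted mouse. With them kept, 37 genes were called, the 25 among them.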
